A study of Danio rerio with 6 samples.

Results

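The genes described here are 10 genes of myeloid cells, the white blood cells that include neutrophils and macrophages, measured in RNA from whole zebrafish embryos. They were chosen by name, as the table entries called *spi1b*, *cebpa*, *irf8*, *csf1ra*, *csf3r*, *mpx*, *lyz*, *lcp1*, *coro1a* and *marco*. They are 10 of the 31953 genes in the table. All 10 were among the 20812 genes that passed the filter on low counts. The study asked what the lncRNA gene *dancr* does in the embryo by deleting its promoter. It compared 3 libraries of *dancr* del F0 crispants with 3 libraries of mock control embryos, all at 30 hours post-fertilisation (hpf) and of wild-type background. Crispants had been injected at the single-cell stage with Cas9 protein carrying pooled guide RNAs against the *dancr* promoter, whereas the mock mixture lacked the *dancr* crRNA. F0 crispants are mosaic, since each embryo holds cells with different edits. The crispants sequenced were Class I and II embryos, the most severely malformed, so they were also selected by phenotype, and each library pooled embryos. The paper describes Class I embryos as without a defined trunk and tail, and Class II embryos as underdeveloped. It also reports prominent necrosis in these classes. The part of these differences in the levels below was not tested. In pooled whole embryos, fewer myeloid cells and less RNA in each myeloid cell cannot be told apart.

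In the zebrafish embryo, the first myeloid cells form from lateral mesoderm before blood stem cells exist, and they spread over the yolk and through the tissues during the first days. Spi1b (Pu.1) directs progenitors into the myeloid lineage, C/EBP factors promote granulocyte genes, and Irf8 favours macrophages over neutrophils. The maturing cells then depend on growth factor receptors, fill their granules with enzymes such as myeloperoxidase and lysozyme, and use leukocyte actin-binding proteins to migrate. Some of these genes are not used by myeloid cells alone. In zebrafish, *csf1ra* is also expressed in xanthophores, the yellow pigment cells, and *cebpa* in the yolk syncytial layer and the liver.

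The reads counted on genes ran from 33841805 to 40515803 per library. Mock control replicate 3 stood apart from the other 5 libraries. Its TMM factor, which corrects for the composition of a library, was 0.749, and those of the other 5 ran from 0.988 to 1.14. The 100 genes with most reads held 33.4% of the reads in it and 24.2% to 26.9% elsewhere. The neuronal gene *elavl3* was at 45.9 CPM in it and at 302 and 243 CPM in the other mock libraries. The summed level of 7 genes of embryo tissues, *elavl3* among them, went the other way. That sum was 27425 CPM in mock replicate 3 and 16646 and 16412 CPM in mock replicates 1 and 2. Unscaled counts of *snora26*, a small RNA hosted by *dancr*, were 22, 8 and 16 in mock replicates 1, 2 and 3, and 0, 7 and 4 in crispant replicates 1, 2 and 3. The replicate 2 counts were thus close in both groups, and a second entry of that name had 0 counts in every library. Levels below are CPM (counts scaled to a common library size) on TMM-scaled totals, in the order of replicates 1, 2 and 3. A gene was called at an adjusted p of at most 0.05, by the Benjamini-Hochberg method over all tested genes, where its log2 fold change was also at least 1 or at most -1.

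The 4 genes for granule enzymes and leukocyte actin-binding proteins, *mpx*, *lyz*, *lcp1* and *coro1a*, had lower levels in every crispant library than in every mock library. The other 6, comprising the lineage transcription factors, the growth factor receptors and the macrophage scavenger receptor *marco*, overlapped between the groups. Groups that do not overlap with crispants lower were found for 5.44% of all tested genes, and with crispants higher for 6.5%. edgeR's quasi-likelihood test called 0 of the 10 genes, and it called 0 (0%) of all tested genes. At an unadjusted p below 0.05 it had the same 4 genes, all lower, where 2.47% of all tested genes were lower and 3.01% higher. DESeq2 called 1 of the 10, *lyz*, among 0.212% of tested genes called lower and 0.582% called higher. limma-voom called 0 of the 10 and 0 of all tested genes, with an adjusted p of 0.600 for *lyz*. With sample quality weights, added after seeing the data, it called 1, *lyz*, and 1.56% of all tested genes. Without mock replicate 3, edgeR called none of the 10 and 0.0935% of all tested genes.

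**Figure D1:**
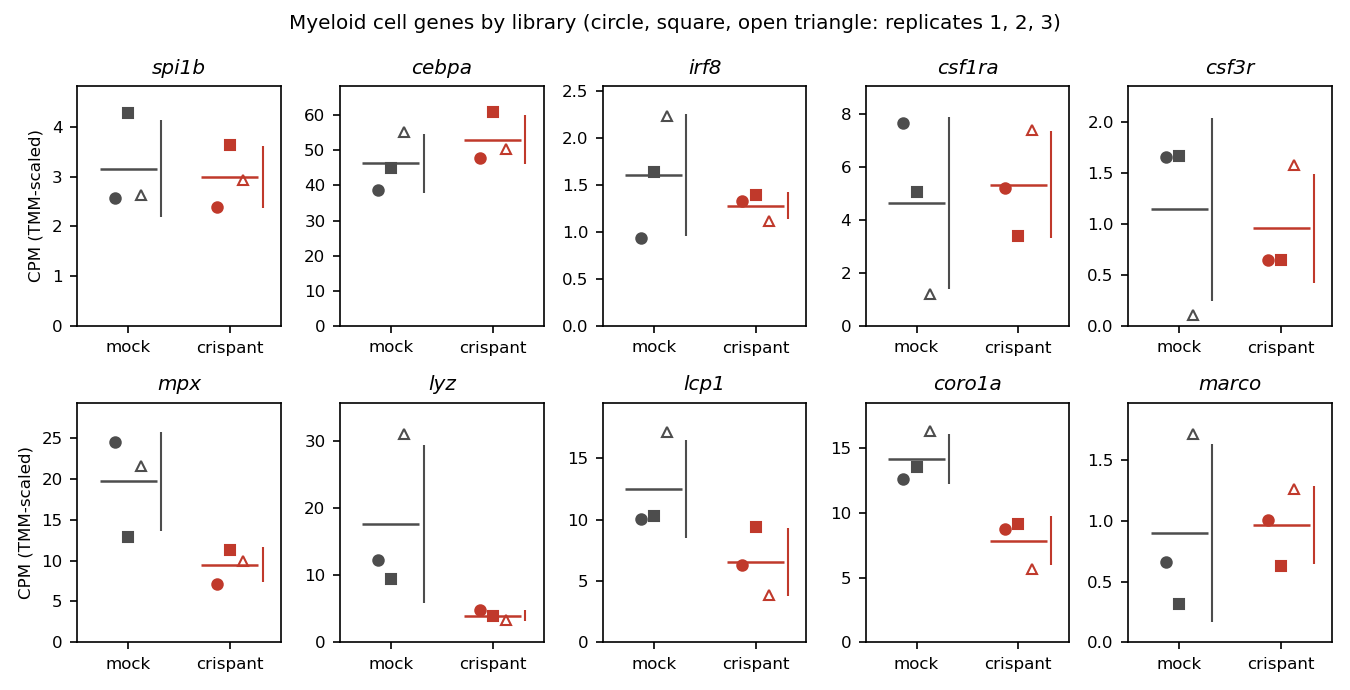
TMM-scaled CPM (y axis, from 0, a separate scale for each gene) of the 10 myeloid genes in mock control (grey) and crispant (red) libraries. Symbols mark replicates, horizontal lines the mean and vertical lines 1 SD. The *mpx*, *lyz*, *lcp1* and *coro1a* panels have all crispant points below all mock points, and the other 6 panels overlap.

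*lyz* encodes lysozyme C, a bacteria-lysing enzyme of neutrophil granules, and lies on chromosome 24 from 23890689 to 23893626 on the minus strand of GRCz10. Its level was 12.3, 9.46 and 31.2 CPM in the mock libraries and 4.83, 3.87 and 3.32 CPM in the crispants. The highest crispant library was thus below the lowest mock library, and mock replicate 3 was far above the other mock libraries. The means were 17.6 ± 11.8 CPM (SD, n = 3) and 4.01 ± 0.762 CPM (SD, n = 3). The log2 fold change was -2.14 (SE 0.48) with an unadjusted p of 0.00185 and an adjusted p of 0.479 in edgeR, and the exact two-sided permutation test of the levels gave p = 0.1, the smallest that 3 libraries against 3 allow. DESeq2 gave a log2 fold change of -2.13 with an adjusted p of 0.00274, and limma-voom with sample quality weights -1.22 with an adjusted p of 0.035. Without mock replicate 3, the edgeR log2 fold change was -1.43 with an adjusted p of 0.122. The summed level of 11 table entries for primitive erythroid genes was also highest in mock replicate 3, at 7607 CPM. It was 2559 and 1804 CPM in the other mock libraries and 1299, 1356 and 2504 CPM in the crispants. *hbbe1.1* has 2 of these entries, which overlap on the chromosome. All 11 erythroid entries had negative log2 fold changes, none was called by edgeR or DESeq2, and 2 of them (*hbbe3* and *urod*) did not overlap. At an unadjusted p below 0.05 edgeR had 4 of the 11, all lower, beside 2.47% of all tested genes lower. The median of the 11 was -1.06, and -0.43 without mock replicate 3. Their part in the *lyz* difference was not tested.

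*mpx* encodes myeloperoxidase, the enzyme of neutrophil granules that makes hypochlorous acid, and lies on chromosome 10 from 7815556 to 7827254 on the minus strand. It was at 24.5, 12.9 and 21.6 CPM in the mock libraries and at 7.19, 11.3 and 9.998 CPM in the crispants. All crispant libraries were lower, but mock replicate 2 was close to the highest crispant. The crispant mean was 0.483 of the mock mean, with a log2 fold change of -1.05 (SE 0.32, unadjusted p = 0.0114, adjusted p = 0.682 in edgeR). This gene was not raised in mock replicate 3, and without that library the log2 fold change was -0.96.

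*coro1a* encodes coronin 1A, an actin-binding protein of leukocytes, and lies on chromosome 3 from 30795522 to 30810520 on the minus strand. Its level was 12.6, 13.6 and 16.3 CPM in the mock libraries and 8.79, 9.12 and 5.68 CPM in the crispants. The lowest mock library, at 12.6 CPM, was well above the highest crispant, at 9.12 CPM, and crispant replicate 3 was well below the other crispants. The means were 14.2 ± 1.91 CPM and 7.86 ± 1.90 CPM (SD, n = 3 each). Its log2 fold change was -0.85 (SE 0.29, unadjusted p = 0.0182, adjusted p = 0.733 in edgeR), the smallest SE of the 4, and with a library left out it ran from -0.94 to -0.66.

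*lcp1* encodes L-plastin, which bundles actin filaments in leukocytes, and lies on chromosome 9 from 56663225 to 56705090 on the minus strand, where the table classes it as a processed transcript. It was at 10.1, 10.3 and 17.1 CPM in the mock libraries and at 6.35, 9.45 and 3.91 CPM in the crispants. Crispant replicate 2 was just below the mock libraries, and mock replicate 3 was well above the rest. The log2 fold change was -0.93 (SE 0.40, unadjusted p = 0.0458, adjusted p = 0.891 in edgeR), and -0.63 without mock replicate 3.

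*marco*, on chromosome 9 from 796083 to 813878 on the minus strand, encodes a scavenger receptor by which macrophages bind particles and bacteria. It was at 0.665, 0.313 and 1.72 CPM in the mock libraries and at 1.00, 0.625 and 1.26 CPM in the crispants. The mock libraries included both the highest and the lowest of the 6, so the groups overlapped fully. Its log2 fold change was 0.11 (SE 0.67), and 1.00 without mock replicate 3, with an adjusted p of 0.586 in edgeR.

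Among the lineage regulators, *spi1b* lies on chromosome 7 from 32373523 to 32388195 on the minus strand. Its level was 2.58, 4.28 and 2.63 CPM in the mock libraries and 2.39, 3.62 and 2.94 CPM in the crispants. Each group had 1 library above the others, replicate 2 in both, and the means were close, at 3.16 ± 0.967 and 2.98 ± 0.620 CPM (SD, n = 3 each). The log2 fold change was -0.08 (SE 0.38). One end of *spi1b* overlaps the opposite-strand gene si:ch73-314g15.3 (32358524 to 32374050), and whether counting used the strand is not given in the sources used here, so some reads may belong to either gene.

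*cebpa*, on chromosome 7 from 37813728 to 37816607 on the minus strand, encodes C/EBPα, a transcription factor of granulocytes. It was at 38.6, 44.9 and 55.3 CPM in the mock libraries and at 47.7, 60.9 and 50.4 CPM in the crispants. The overlap came from mock replicate 3, which was above crispant replicates 1 and 3. The log2 fold change was 0.20 (SE 0.21), and 0.36 (adjusted p = 0.491 in edgeR) without mock replicate 3, when every crispant library was above the mock libraries. The 8 table entries for yolk syncytial layer and liver genes, a tissue that also uses *cebpa*, summed to 10889, 10969 and 14776 CPM in the mock libraries and 8986, 9847 and 8924 CPM in the crispants. The sum was thus lower in every crispant. Of the 8, 7 had negative log2 fold changes, with a median of -0.24, and 0.14 without mock replicate 3. None of these 8 was called, all 8 overlapped when taken singly, and their part in the *cebpa* level was not tested.

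*irf8*, on chromosome 18 from 30589691 to 30595595 on the plus strand, encodes the interferon regulatory factor that favours macrophages. It was at 0.942, 1.64 and 2.24 CPM in the mock libraries and at 1.33, 1.40 and 1.12 CPM in the crispants. The crispants lay within the mock range. Its log2 fold change was -0.32 (SE 0.46), and -0.00081 without mock replicate 3.

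The receptor *csf1ra*, on chromosome 14 from 3170816 to 3202049 on the minus strand, binds macrophage colony-stimulating factor. It was at 7.65, 5.06 and 1.19 CPM in the mock libraries and at 5.21, 3.37 and 7.38 CPM in the crispants. Mock replicate 3 was the lowest of all 6 and mock replicate 1 the highest, so the crispants lay within the mock range. The log2 fold change was 0.20 (SE 0.62), and -0.23 without mock replicate 3. The 6 xanthophore genes summed to 537, 422 and 505 CPM in the mock libraries and 334, 285 and 477 CPM in the crispants. The 3 crispants had the same order for *csf1ra* and for this sum, while the sum in mock replicate 3 was not low. None of the 6 xanthophore genes was called, all overlapped, and their part in the *csf1ra* level was not tested.

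*csf3r*, on chromosome 16 from 3207375 to 3230290 on the minus strand, encodes the receptor for granulocyte colony-stimulating factor. It was at 1.66, 1.67 and 0.105 CPM in the mock libraries and at 0.651, 0.650 and 1.58 CPM in the crispants. The value in mock replicate 3 rests on 3 counts. The other mock libraries were above every crispant, and the log2 fold change, -0.26 (SE 0.85) with all libraries, was -0.77 (adjusted p = 0.627 in edgeR) without mock replicate 3. The receptor genes thus had their lowest value in the same mock library that had the highest *lyz*, *lcp1*, *coro1a*, *marco* and *irf8* levels.

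**Figure D2:**
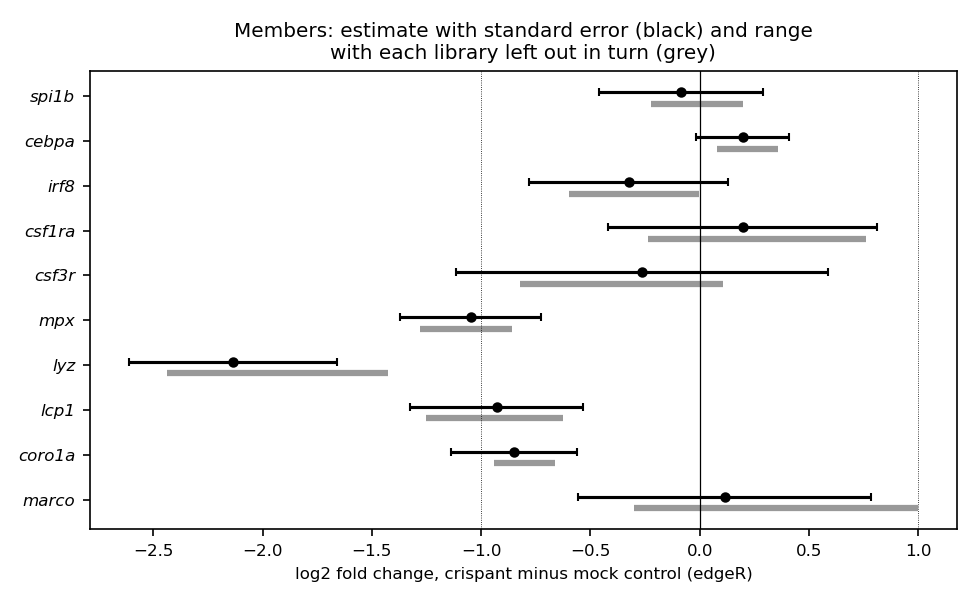
log2 fold change of crispants relative to mock controls (x axis) for each of the 10 genes. Points are edgeR estimates with their standard error and grey bars span the estimates with each of the 6 libraries left out in turn. The *lyz*, *mpx*, *lcp1* and *coro1a* bars stay below 0, those of *spi1b*, *csf1ra*, *csf3r* and *marco* cross it, and dotted lines mark the fold change threshold.

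Over the 10 genes, 7 log2 fold changes were below 0 and 3 above, and the median was -0.29, beside -0.04 over all tested genes. The 5 regulators and receptors had a median of -0.08, and the 5 granule, cytoskeleton and surface genes a median of -0.93. Without mock replicate 3 these medians were -0.19 and -0.72, beside 0.01 over all tested genes. The counts without overlap rose by at most 1 with a library left out, and they could not fall, since separated groups stay separated. Without mock replicate 3, 5 genes were lower (*csf3r* joined the 4) and 1 was higher (*cebpa*), and without mock replicate 1, 5 were lower (*irf8* joined). Smaller groups separate more easily, and the shares of all tested genes with a library left out were not computed. The added genes are therefore no further evidence. Scaling by library totals alone moved the median of all tested genes to 0.13 and that of the 10 genes to -0.14. Under that scaling the same 4 genes were lower without overlap, and *cebpa* was higher.

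Levels of different genes were compared on the deposited FPKM values, which divide each count by the length of the gene. In all 3 mock libraries *lyz* had the highest FPKM of the 10 genes and *cebpa* the next, and in all 3 crispant libraries this order was turned around. In mock replicate 2 these genes were nearly equal, at 15.6 FPKM for *lyz* and 15.5 FPKM for *cebpa*, so their order there is not clear. The mean FPKM of *lyz* was 28.7 ± 18.9 in mock controls and 6.56 ± 1.27 in crispants, and that of *cebpa* 15.8 ± 2.74 and 18.1 ± 2.40 (SD, n = 3 each). *coro1a* held the third place and *mpx* the fourth in all 6 libraries. The remaining genes had mean FPKM values from 0.466 (*csf3r*) to 2.56 (*lcp1*) in mock controls and from 0.388 (*csf3r*) to 1.49 (*csf1ra*) in crispants, and their order differed from library to library. Thus *spi1b*, *irf8* and *csf1ra*, at mean mock FPKM of 1.32, 0.895 and 1.30, could not be ranked beyond their spread.

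A ratio of FPKM values within a library does not depend on how that library was scaled. Ratios of the 4 lower genes to *cebpa*, *spi1b* and *irf8* were therefore computed, after these values had been seen. The ratio of *lyz* to *cebpa* was 1.52, 1.01 and 2.69 in the mock libraries and 0.483, 0.304 and 0.315 in the crispants. The groups did not overlap, and the difference of the mean log2 ratios was -2.16. As *lyz*, *mpx*, *lcp1* and *coro1a* were all taken for their lower levels in the crispants, their ratios describe the same differences. Lower ratios were thus largely fixed by that choice, and no p-value is read from them. The ratio of *coro1a* to *cebpa* was at 0.520, 0.480 and 0.469 in the mock libraries and 0.293, 0.238 and 0.179 in the crispants. Mock replicate 3 was close to the other mock libraries in this ratio. Ratios of *mpx* and *lcp1* to *cebpa* were also lower in every crispant, with differences of -1.23 and -1.18 on the log2 scale. Of all 12 ratios, 7 were lower without overlap and 5 overlapped. The 7 were the 4 ratios to *cebpa*, those of *lyz* to *spi1b* and *irf8*, and that of *coro1a* to *irf8*. The 12 ratios share denominators and libraries, so they are not separate observations.

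**Figure D3:**
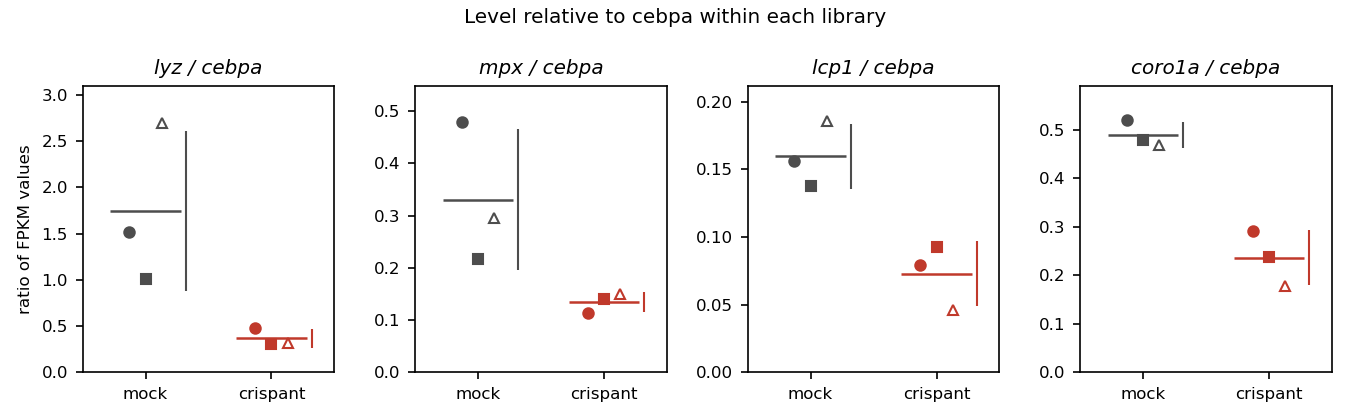
Ratio of the FPKM of *lyz*, *mpx*, *lcp1* and *coro1a* to that of *cebpa* in the same library (y axis, from 0), in mock control (grey) and crispant (red) libraries. Symbols mark replicates 1 (circle), 2 (square) and 3 (open triangle), with the mean and 1 SD. All 4 ratios are lower in each crispant than in each mock library, and that of *coro1a* runs from 0.469 to 0.520 in mock libraries and from 0.179 to 0.293 in crispants. The 4 numerators were taken for their lower levels in the crispants.

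Other neutrophil genes were read beside the 10. Of 8 tested, 3 were lower without overlap and 1 was higher. *npsn*, the neutrophil protease nephrosin, was at 14.5, 5.996 and 22.6 CPM in mock and 5.05, 3.57 and 4.51 CPM in crispant libraries. *lect2l*, a secreted neutrophil protein, was at 4.68, 5.68 and 24.1 CPM and 1.74, 3.60 and 1.82 CPM. Like *lyz*, both were lower in all crispants and highest in mock replicate 3. Their edgeR log2 fold changes were -1.71 (SE 0.47, adjusted p = 0.612) and -2.26 (SE 0.68, adjusted p = 0.676), DESeq2 called both (adjusted p = 0.0427 each), and without mock replicate 3 they were -1.21 and -1.11. limma-voom with sample quality weights called *lect2l* (-1.47, adjusted p = 0.0476) but not *npsn* (-0.66, adjusted p = 0.322). The chemokine receptor *cxcr4b*, which other tissues also express, was lower as well, at -0.53 (SE 0.25). In contrast, *mmp9*, a matrix metalloproteinase of neutrophils that wounded epithelium also makes, was at 13.9, 11.99 and 18.6 CPM in mock and 222.2, 66.5 and 172.7 CPM in crispant libraries. Every crispant was several times above every mock library, with a log2 fold change of 3.38 (SE 0.44). Its adjusted p was 0.148 in edgeR, 1.46e-10 in DESeq2 and 0.0451 in edgeR without mock replicate 3. The median of the 8 genes was -0.44, and -0.33 without mock replicate 3. None of the 6 tested subunits and partners of the phagocyte oxidase, which makes superoxide, was without overlap, with a median of -0.26, and -0.12 without mock replicate 3. Of these, *rac2* was the most expressed (-0.51, SE 0.33), and it was at 53.4 CPM in mock replicate 3 and 22.0 to 28.1 CPM elsewhere. Without that library it was at -0.035.

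The other macrophage genes, with 17 tested, had a median of -0.04, the same as all tested genes. 3 of them were lower without overlap and none higher. These were the protease *ctss2.2* (-0.81, SE 0.40), the chemokine receptor *cxcr3.2* (-1.34, SE 0.71) and *havcr1* (-0.89, SE 0.43). Of the 17, 8 were above 0 and 9 below, over a range from -1.45 to 1.22, and without mock replicate 3 the median was 0.07. The most expressed, the apolipoprotein *apoeb*, which the yolk syncytial layer also makes, was at -0.09 (SE 0.35). Among 13 tested genes of leukocyte signalling and cytoskeleton, 4 were lower without overlap and 12 had a negative log2 fold change, with a median of -0.66, and -0.60 without mock replicate 3. The 4 were the phosphatase *ptpn6* (-1.16, SE 0.44), the β2 integrin *itgb2* (-1.004, SE 0.42), the adhesion protein *parvg* (-1.09, SE 0.38) and *hcls1* (-0.28, SE 0.21). The one above 0 was *arhgdig* (0.10, SE 0.18), also the most expressed. Neither edgeR nor DESeq2 called any gene of the macrophage, oxidase or leukocyte lists, and at an unadjusted p below 0.05 edgeR had 3 leukocyte genes, all lower, and 0 of the macrophage and oxidase genes. As *coro1a* is also expressed in lymphocytes, lymphoid, mast cell and thrombocyte genes were summed. The sum stood at 8.42, 8.45 and 12.8 CPM in the mock libraries and at 3.64, 7.32 and 6.19 CPM in the crispants, lower in every crispant. All 5 tested had negative log2 fold changes, with a median of -0.59, and -0.79 without mock replicate 3. At an unadjusted p below 0.05 edgeR had 1 of them, lower. None of the 5 was without overlap, and the T cell kinase *lck* was at 0 counts in 2 mock libraries. The sum mixes lymphoid genes with those of mast cells and thrombocytes, so it does not measure lymphocytes alone. The part of these genes in the *coro1a* level was not tested.

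**Figure D4:**
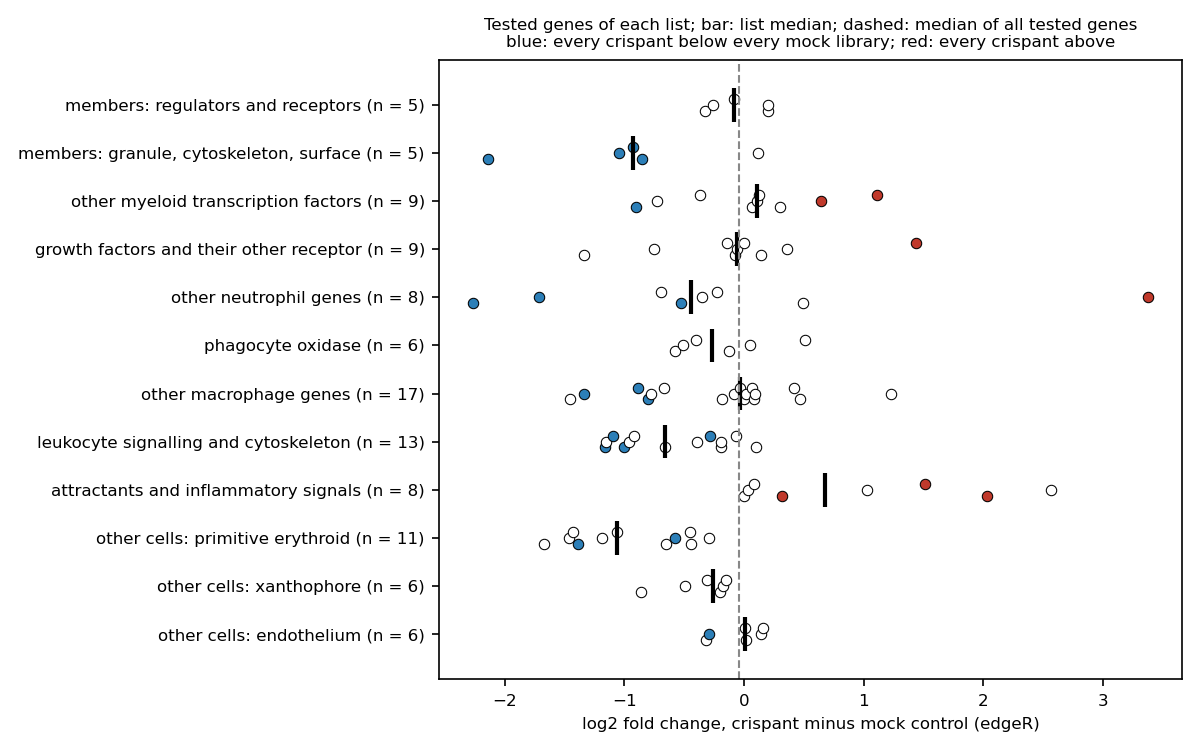
edgeR log2 fold change of crispants relative to mock controls (x axis) for every tested gene of each list (y axis, number of tested genes in brackets). Bars mark list medians and the dashed line the median of all tested genes (-0.04), with genes lower in every crispant in blue and higher in every crispant in red. The medians of the granule, cytoskeleton and surface genes (-0.93), the leukocyte genes (-0.66) and the erythroid genes (-1.06, and -0.43 without mock replicate 3) lie to the left. That of the attractants (0.68) lies to the right.

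All 8 tested attractants and inflammatory signals had log2 fold changes above 0, with a median of 0.68, and 1.15 without mock replicate 3. They ranged from 0.0012, which is no change, to 2.57. edgeR called 0 of the 8, and at an unadjusted p below 0.05 it had 3, all higher. Without overlap, 3 of the 8 were higher. *il1b*, encoding the inflammatory cytokine interleukin 1β, was at 1.27, 1.93 and 1.09 CPM in mock and 2.42, 6.10 and 9.08 CPM in crispant libraries. Its log2 fold change was 2.03 (SE 0.53, adjusted p = 0.585 in edgeR), and DESeq2 called it with an adjusted p of 0.0231. limma-voom with sample quality weights did not call *il1b*, at 0.99 with an adjusted p of 0.274. The neutrophil attractant *cxcl18b* was at 1.47, 2.74 and 4.24 CPM in mock and 6.81, 9.25 and 7.96 CPM in crispant libraries, with a log2 fold change of 1.51 (SE 0.42, adjusted p = 0.612 in edgeR and 0.0506 in DESeq2). limma-voom with sample quality weights called *cxcl18b*, at 1.59 with an adjusted p of 0.0193. *cxcl12a*, the ligand of Cxcr4, was at 0.32 (SE 0.17, adjusted p = 0.996 in edgeR). Its unadjusted p was not below 0.05, so the 3 genes without overlap were not the same 3. Among 9 tested growth factors and the other receptors, 1 was higher without overlap and the median was -0.06, and -0.33 without mock replicate 3. The higher one was *csf3b*, a ligand of Csf3r, at 0.305, 0.235 and 0.385 CPM in mock and 0.516, 0.675 and 1.31 CPM in crispant libraries (1.44, SE 0.58, adjusted p = 0.863 in edgeR). The most expressed, *kitlga*, was at 0.14 (SE 0.25). *csf1rb*, the second Csf1 receptor gene, was at -1.33 (SE 0.57) and overlapped.

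Among 9 tested other transcription factors of myeloid cells and blood progenitors, the median was 0.11. Without mock replicate 3 it was -0.08. Of the 3 other C/EBP genes, *cebpb* and *cebpd* were higher in every crispant and *cebp1* overlapped (0.11, SE 0.45). *cebpb*, a factor induced by inflammatory signals, was at 42.7, 83.6 and 85.0 CPM in mock and 94.1, 221.7 and 140.2 CPM in crispant libraries, with a log2 fold change of 1.11 (SE 0.37, adjusted p = 0.725 in edgeR). *cebpd* was at 0.64 (SE 0.26). *spi1a*, the second Pu.1 gene, was lower in every crispant, at 1.61, 1.90 and 1.75 CPM in mock and 1.058, 1.17 and 0.582 CPM in crispant libraries (-0.90, SE 0.44, adjusted p = 0.977 in edgeR), whereas *spi1b* overlapped. Neither edgeR nor DESeq2 called any of these transcription factor or growth factor genes, and at an unadjusted p below 0.05 edgeR had 3 higher (*cebpb*, *cebpd* and *csf3b*) and 1 lower (*csf1rb*).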

How the data were processed

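RNA-seq was carried out on PolyA selected RNA of 3 mock control and 3 *dancr* crispant pools of whole embryos. The authors deposited raw read counts per gene, from reads aligned to GRCz10/danRer10 with HISAT2 by a Novogene pipeline. The counter, its strand setting, the versions and the Ensembl release are not given in the sources used here. The deposited FPKM values divide these counts by gene length and by a scaled library total, as was checked on the values. The deposited group means, log2 fold changes and p-values of the authors' DESeq2 comparison were not used, and the columns of values per library that went unused numbered 0. Coordinates are those of the table.

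After filterByExpr with a minimum count of 10, the quasi-likelihood test of edgeR 4.0.16 (R 4.3.3) was run on TMM-normalized counts of all 6 libraries with no covariate. P-values were adjusted over all tested genes, and each standard error is the log2 fold change divided by the square root of F. Total counts per library ran from 33841805 to 40515803, which sets the counting error. The functions were tested on simulated data. P-values of edgeR, DESeq2 and limma-voom set the difference between the groups against the spread between the 3 libraries of a group.

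The members and lists were chosen with earlier results of these data known. Of 138 list entries, 125 matched the table by gene name, 10 through a table of gene names, and 3 (*cxcr2*, *vav1* and *fmnl1b*) were not matched. All members were named, and of the other lists the genes called by edgeR or DESeq2, those whose groups do not overlap with a mean count of at least 10, and the most expressed gene. Other genes (*csf1rb*, *cebp1*, *elavl3* and *lck*) were named after their values were seen. Alternatives were DESeq2 1.42.0, its size factors within edgeR, no filter on low counts, limma-voom (limma 3.58.1), robust empirical Bayes, no minimum fold change, FPKM, the replicate number as a block, and each library left out. Library totals without a scaling factor, limma-voom with sample quality weights and ratios within a library were added after seeing the data. A promoter motif search was not run.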

Additional observations from a re-analysis of the deposited data

How the results depend on the processing

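The count of called members was 0 in edgeR under every alternative scaling, filter, prior and threshold and with any library left out, 0 with limma-voom, 1 (*lyz*) with DESeq2 and 1 (*lyz*) with limma-voom with sample quality weights. The count of members higher without overlap was 1 (*cebpa*) with library totals alone and ran from 0 to 1 with a library left out, the 1 being without mock replicate 3. That of members lower without overlap ran from 4 to 5. The median log2 fold change of all 10 members ran from -0.45 to -0.20 with a library left out, and was -0.15 with limma-voom and -0.60 with sample quality weights. In 14 alternatives *cebpa*, *mpx*, *lyz*, *lcp1* and *coro1a* kept their direction. *irf8* also stayed below 0, but it was at -0.00081 without mock replicate 3, which is no change. The direction of small differences did not hold: with library totals *spi1b* was at 0.055 and *apoeb* at 0.16, with limma-voom *csf3r* was at 0.22, and with sample quality weights *csf1ra* was at -0.087, *kitlga* at -0.076, *apoeb* at 0.11 and *rac2* at 0.063. With a library left out, *spi1b* ran from -0.22 to 0.20, *csf1ra* from -0.23 to 0.76, *csf3r* from -0.82 to 0.10, *marco* from -0.30 to 1.00 and *apoeb* from -0.32 to 0.32. The cause was not tested.

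Same-numbered libraries had deviations from their group means correlated at 0.23, -0.06 and -0.12. With so few libraries, and mock replicate 3 apart, these values cannot decide whether the numbers pair the samples. The labels do not state a pairing. With the replicate block, 0 members were called and their median was -0.16. Of all tested genes, edgeR called 0, and 20 without mock replicate 3, and DESeq2 called 165.

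With 3 libraries a group and 1 mock library apart, the log2 fold changes of *lyz*, *npsn* and *lect2l* changed in size but not in sign. *marco*, *csf3r* and *irf8* lie near 1 CPM, where counts limit precision. Mock replicate 3 was set apart by its composition, and groups of 3 were too small for a formal test for outlying samples.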
